A study of Mus musculus with 6 samples.

Results

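Voltage-gated and related ion channels of the heart muscle cell were described in cardiomyocytes of TFEB-/- and wild-type mice. The genes were those of the deposited table whose symbols began with Kcn (potassium channels), Hcn (pacemaker channels), Cacn (calcium channels) or Scn followed by a number and a or b (sodium channels), with antisense and overlapping transcripts left out. The rule found 136 genes of 46450 symbols, and 53 of them reached at least 1 CPM in at least 3 of the 6 libraries. TFEB-/- cardiomyocytes gave 3 libraries and wild-type (WT) cardiomyocytes gave 3, all from hearts of C57BL/6 mice aged 3 months, with no other allele, treatment or sex given in the labels. The labels do not say which cells the deletion was driven in, nor that each library came from a separate animal, so p-values measure the spread between these libraries, which may be technical. TFEB is a transcription factor that drives lysosomal and autophagy genes.

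The heartbeat of a muscle cell is carried by these proteins in turn. Sodium channels fire the action potential, L-type calcium channels admit the calcium that triggers contraction, and several potassium channels restore the resting potential. T-type calcium channels and the hyperpolarisation-activated Hcn channels are best known from pacemaker cells, and accessory subunits set how many channels reach the membrane and how fast they open and close.

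Each library had 1 whole-number value per gene, called kallisto CPM (read counts scaled to a common library total) by the name of the table. Rounding moves a value by up to 0.5 CPM, and the reads behind it, and hence counting error, are unknown. Library sums ran from 999525 to 999655 CPM in TFEB-/- and from 999505 to 999559 CPM in WT. Tfeb itself was at 6, 5 and 7 CPM in TFEB-/-, against 17, 30 and 23 CPM in WT (log2 fold change -1.85, SE 0.24, limma adjusted p = 0.0267), so every TFEB-/- library lay below every WT library. All 10 cardiomyocyte markers were detected, with summed levels of 75390 to 99417 CPM in TFEB-/- and 62962 to 82923 CPM in WT. Mitochondrial transcripts took 25.9 ± 4.06% of TFEB-/- and 36.4 ± 7.28% of WT libraries (SD, n = 3 each, exact two-sided permutation p = 0.1, the smallest 3 against 3 allow). The median log2 fold change of all 12437 genes tested was 0.24 rather than 0. For some genes below, fold changes are therefore also given relative to that median or after rescaling each library by its median ratio. Errors after ± are SD over n = 3 libraries, fold changes are TFEB-/- over WT on the log2(CPM + 0.5) scale, and adjusted p-values are from limma over all genes tested. In these bulk libraries fewer cells of a type and less RNA per cell cannot be told apart.

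TFEB binds E-boxes, so the promoters of the channel genes were searched for the letters CACGTG, which read the same on both strands, and for the CLEAR element of lysosomal genes, a longer sequence with CACGTG at its middle. RefSeq promoter windows of 300 bases (GRCm38.p6, 250 bases before to 50 after the gene start) were matched by symbol for 34 of the 53 genes. That start is the one used for the windows and can differ from the GENCODE M21 positions given below. The Scn10a window lies wholly inside the GENCODE gene. CACGTG was found in windows of 2 of the 34 (5.88%), against 8.09% of all 27025 genes with a window, and the CLEAR element in 0 of the 34, against 0.37% of all. The 2 were Kcnj2 and Kcne4, and both are printed with CACGTG in capitals. The windows of Scn10a and Cacna1s follow, without a match, as those with the largest fitted rise and the largest fitted fall among the called genes that had a window and values above 0 in both groups. The 4 windows lie at chr11:111065914-111066213 (plus strand), chr1:78816661-78816960 (plus), chr9:119718983-119719282 (minus) and chr1:136052561-136052860 (plus).
Kcnj2: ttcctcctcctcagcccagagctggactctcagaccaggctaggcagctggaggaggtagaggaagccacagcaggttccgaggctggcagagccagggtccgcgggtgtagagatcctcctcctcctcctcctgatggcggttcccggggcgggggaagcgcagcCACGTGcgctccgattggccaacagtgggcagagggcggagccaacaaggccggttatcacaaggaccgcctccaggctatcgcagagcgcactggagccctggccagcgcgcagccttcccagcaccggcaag
Kcne4: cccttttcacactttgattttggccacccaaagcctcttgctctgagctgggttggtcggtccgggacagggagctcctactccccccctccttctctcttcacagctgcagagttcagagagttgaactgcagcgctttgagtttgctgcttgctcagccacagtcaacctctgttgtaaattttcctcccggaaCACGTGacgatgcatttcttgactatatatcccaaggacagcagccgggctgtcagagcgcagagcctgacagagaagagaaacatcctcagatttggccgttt
Scn10a: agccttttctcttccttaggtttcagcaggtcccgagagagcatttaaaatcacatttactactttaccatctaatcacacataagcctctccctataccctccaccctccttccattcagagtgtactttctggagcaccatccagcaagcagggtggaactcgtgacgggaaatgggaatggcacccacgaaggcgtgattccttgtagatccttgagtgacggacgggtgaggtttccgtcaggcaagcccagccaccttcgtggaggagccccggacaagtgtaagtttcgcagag
Cacna1s: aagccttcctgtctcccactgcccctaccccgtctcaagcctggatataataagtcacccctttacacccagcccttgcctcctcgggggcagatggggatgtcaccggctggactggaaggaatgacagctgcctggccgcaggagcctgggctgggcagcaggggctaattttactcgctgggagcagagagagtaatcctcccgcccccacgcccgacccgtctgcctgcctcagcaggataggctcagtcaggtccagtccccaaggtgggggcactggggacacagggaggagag

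A match is no evidence of binding, and a window without one says only that these letters are not in it. The match began 84 bases before the start used by the window in Kcnj2, whose transcript is described with the inward rectifiers below. In Kcne4, an accessory subunit at 1 or 2 CPM in every library, the match began 54 bases before the start used by its window. The GENCODE M21 start of Kcne4 is 78816758, so there the match lies inside the annotated gene.

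The called genes with a spread in at least 1 group were calcium and sodium channel genes, and in TFEB-/- cardiomyocytes the T-type calcium channel pore Cacna1g, the P/Q-type pore Cacna1a, the calcium channel beta subunit Cacnb1 and the sodium channel pore Scn10a were among the higher genes, and the skeletal muscle L-type pore Cacna1s was lower. Of the 53 genes, 7 were called higher (13.2%, against 3.92% of all genes tested) and 2 lower (3.77%, against 0.523%) at an adjusted p below 0.05. Among the 9 were 3 genes with no spread within either group, Kcnab3, Cacng7 and Kcnh7, each listed at 0 in one of the groups. They passed the filter on low values through the other group alone, so they had to differ. Without all genes of that kind, a choice made after the values were seen, 5 of 50 were higher (10%, against 3.11% of all genes) and 1 lower (2%, against 0.415%). With median-ratio scaling 7 were higher, against 3.87% of all genes, and 4 lower, against 1.61%. At that scaling the log2 fold changes of Cacna1a, Cacna1s, Cacnb1 and Scn10a were 1.57, -1.69, 1.08 and 2.49, each with a limma adjusted p below 0.05. Libraries of the 2 genotypes did not overlap for 15 genes with TFEB-/- above WT (28.3%, against 21.2% of all genes tested) and for 4 with TFEB-/- below WT (7.55%, against 2.28%). Those counts hold the same 3 genes, and without genes of that kind 13 of 50 lay above (26%, against 20.4%) and 3 below (6%, against 2.19%). The median log2 fold change was 0.33 over the 53 channel genes, 0.10 above the median of all genes.

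**Figure D1:**
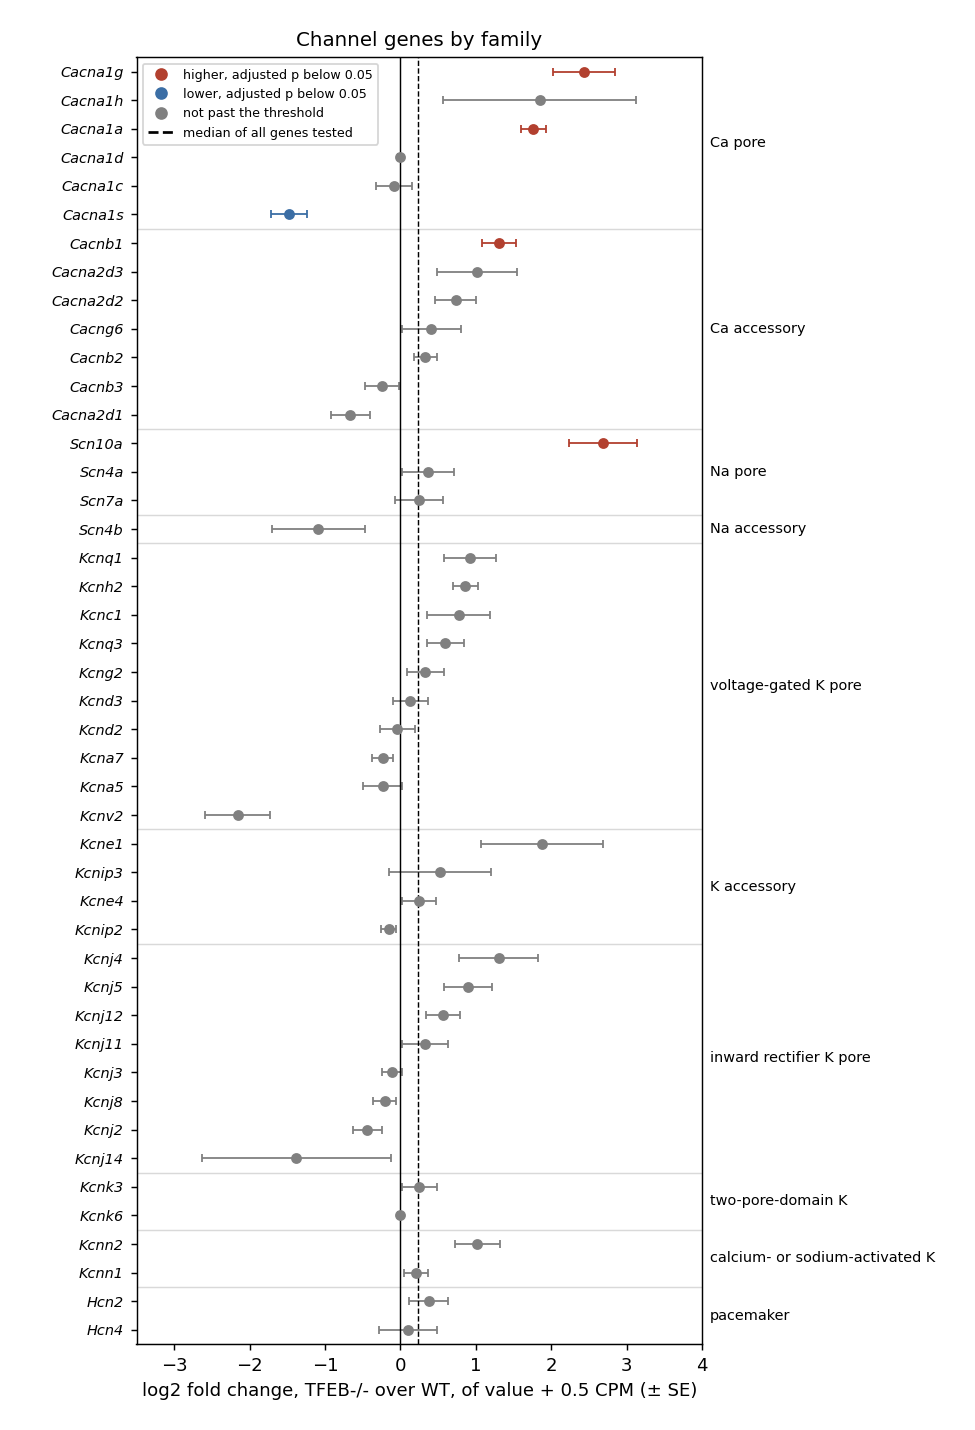
Log2 fold change (TFEB-/- over WT, value + 0.5 CPM) with its SE on the x axis for 45 channel genes grouped by family, coloured by the limma call; 3 genes listed at 0 throughout one group are among those left out. The dashed line is the median of all genes tested, 0.24, and the called genes drawn are Cacna1g, Cacna1a, Cacnb1 and Scn10a to the right and Cacna1s to the left.

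Cacna1g (ENSMUSG00000020866; GRCm38 chromosome 11, 94408391 to 94474198, minus strand, protein coding, with no overlapping gene in GENCODE M21) forms the pore of a T-type calcium channel that opens at low voltage and is best known from pacemaker and conduction cells. It was at 138, 72 and 107 CPM in TFEB-/-, against 29, 18 and 12 CPM in WT. Every TFEB-/- library was above the highest WT library, with means of 105.7 ± 33.0 CPM in TFEB-/- and 19.7 ± 8.62 CPM in WT. The log2 fold change was 2.44 (SE 0.41, adjusted p = 0.0482; 2.20 with median-ratio scaling, adjusted p = 0.0103). Cacna1h, the other T-type pore measured, was at 9, 3 and 62 CPM in TFEB-/-, against 1, 8 and 3 CPM in WT. The groups overlapped and its high mean in TFEB-/- came from replicate 3 (adjusted p = 0.417).

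The other calcium channel pores gave 1 lower and 1 higher gene. Cacna1c, the pore of the main L-type channel of ventricular muscle, was at 177, 129 and 153 CPM in TFEB-/- and at 219, 147 and 131 CPM in WT (log2 fold change -0.09, SE 0.24, adjusted p = 0.844), with overlapping groups. Cacna1s (ENSMUSG00000026407; chromosome 1, 136052750 to 136119822, plus strand), the L-type pore and voltage sensor of skeletal muscle, was at 2, 3 and 4 CPM in TFEB-/-, against 8, 10 and 9 CPM in WT. It fell, with means of 3 ± 1 CPM in TFEB-/- and 9 ± 1 CPM in WT and no overlap between the groups. Its log2 fold change was -1.48 (SE 0.24, adjusted p = 0.0469). Cacna1d, the L-type pore best known from the sinoatrial node, was at 1 CPM in every library. Cacna1a (ENSMUSG00000034656; chromosome 8, 84388440 to 84640246, plus strand), known from nerve terminals, was at 6, 4 and 4 CPM in TFEB-/-, against 1 CPM in each WT library (log2 fold change 1.76, SE 0.16, adjusted p = 0.00873). Cacna1a, Cacna1s and Cacnb1 overlap annotated non-coding genes, and whether the counting used strand is not stated.

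Of the 8 tested accessory calcium channel subunits 2 were called, both higher (25%, against 3.92% of all genes tested). They were Cacnb1 and Cacng7, and Cacng7 passed the filter through TFEB-/- alone, so it had to differ. Cacnb1 (ENSMUSG00000020882; chromosome 11, 98001508 to 98023034, minus strand), the beta subunit paired with Cacna1s in skeletal muscle, was at 20, 14 and 15 CPM in TFEB-/-, against 8, 6 and 5 CPM in WT (log2 fold change 1.31, SE 0.22, adjusted p = 0.0485). The groups did not overlap. Cacnb2, the main cardiac beta subunit, was at 46, 48 and 48 CPM in TFEB-/- and at 47, 35 and 32 CPM in WT (adjusted p = 0.257). Cacna2d1, the main cardiac alpha-2-delta subunit, was at 25, 49 and 38 CPM in TFEB-/-, against 61, 58 and 53 CPM in WT (log2 fold change -0.66, SE 0.26, adjusted p = 0.22), so all TFEB-/- libraries were below all WT libraries without a call. Its relative Cacna2d2 was at 6, 5 and 6 CPM in TFEB-/-, against 4, 4 and 2 CPM in WT (adjusted p = 0.198), and Cacna2d3, Cacnb3 and Cacng6 stayed between 0 and 3 CPM. Cacng7, of the gamma subunit family, was at 1 CPM in each TFEB-/- library and listed at 0 in each WT library, a single rounding step.

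Scn10a (ENSMUSG00000034533; chromosome 9, 119608456 to 119719322, minus strand) forms the pore of a sodium channel best known from sensory neurons. It was at 24, 12 and 11 CPM in TFEB-/-, against 3, 2 and 1 CPM in WT (log2 fold change 2.69, SE 0.45, adjusted p = 0.048). The groups did not overlap.

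The muscle pore Scn4a was at 62, 41 and 42 CPM in TFEB-/- and at 54, 24 and 38 CPM in WT (log2 fold change 0.37, adjusted p = 0.528), and Scn7a was at 1 or 2 CPM throughout. Scn4b, a beta subunit that modulates gating, was at 15, 31 and 43 CPM in TFEB-/- and at 70, 29 and 98 CPM in WT (log2 fold change -1.09, SE 0.62, adjusted p = 0.327). WT replicate 2 fell within the TFEB-/- range of Scn4b, and the same library had the highest atrial marker sum of its group, 1913 CPM against 679 and 315 CPM in WT replicates 1 and 3. The atrial sum was 1263, 2025 and 1635 CPM in TFEB-/- over 7 detected markers of 7, and its part in these values was not tested.

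**Figure D2:**
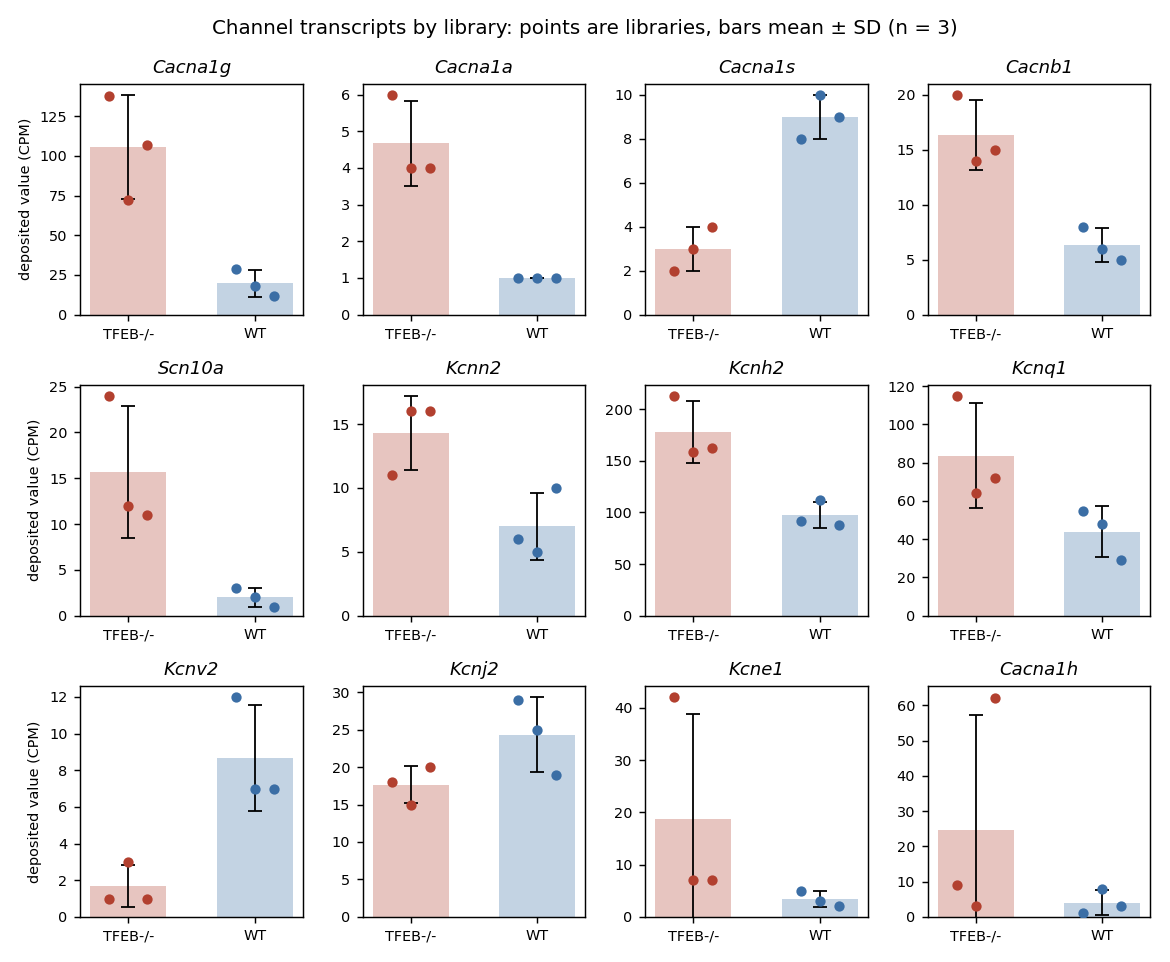
Deposited values in CPM (y axis, linear, each panel with its own scale from 0) of 12 channel genes in 3 TFEB-/- (red, left) and 3 WT (blue, right) libraries; bars are means and error bars SD, cut at 0 where they reach below it. Cacna1g was at 72 to 138 CPM in TFEB-/- and 12 to 29 CPM in WT, while the high means of Kcne1 and Cacna1h in TFEB-/- rest on 1 library each.

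Among 14 voltage-gated potassium channel pores none was higher and 1 was lower (7.14%, against 0.523% of all genes tested). That gene, Kcnh7, was at 0 in each TFEB-/- library and 1 CPM in each WT library. It passed the filter through WT alone, so it had to differ. Of the 14, 6 had an unadjusted limma p below 0.05 (42.9%, against 23.3% of all genes tested). Those 6 include Kcnh7, and the share without genes of that kind is not given. Kcnv2, also among them, was lower in TFEB-/-, and the rest were higher. The pores of the rapid and the slow delayed rectifier current, Kcnh2 and Kcnq1, had higher values in TFEB-/- without a call. Kcnh2, the pore of the rapid delayed rectifier, was at 213, 159 and 162 CPM in TFEB-/-, against 92, 112 and 88 CPM in WT (log2 fold change 0.86, SE 0.16, adjusted p = 0.0603). All TFEB-/- libraries exceeded all WT libraries, and with median-ratio scaling Kcnh2 passed the threshold (log2 fold change 0.62, adjusted p = 0.0376). Kcnq1, the pore of the slow delayed rectifier, was at 115, 64 and 72 CPM in TFEB-/-, against 55, 48 and 29 CPM in WT (adjusted p = 0.203). Its accessory subunit Kcne1 was at 42, 7 and 7 CPM in TFEB-/-, against 5, 3 and 2 CPM in WT (log2 fold change 1.88, SE 0.81, adjusted p = 0.247), with TFEB-/- replicate 1 far above the others.

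Kcnv2 encodes a silent subunit that forms no channel alone and changes the gating of its pore-forming partners. It was at 1, 3 and 1 CPM in TFEB-/-, against 12, 7 and 7 CPM in WT (log2 fold change -2.16, SE 0.43, adjusted p = 0.0685), with no overlap. With median-ratio scaling it passed the threshold (log2 fold change -2.35, adjusted p = 0.0147). Kcng2, another silent subunit, was at 122, 70 and 84 CPM in TFEB-/- and at 81, 74 and 60 CPM in WT (log2 fold change 0.33, SE 0.24, adjusted p = 0.448), so the groups overlapped.

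The genes of the fast transient outward current, the main early repolarising current of the mouse ventricle, had overlapping groups. Its pores Kcnd2 (10, 15 and 10 CPM in TFEB-/- and 15, 11 and 10 CPM in WT) and Kcnd3 (7, 9 and 6 CPM in TFEB-/- and 8, 7 and 5 CPM in WT) had log2 fold changes of -0.04 and 0.13. Its accessory subunit Kcnip2 was at 186, 162 and 179 CPM in TFEB-/- and at 181, 218 and 189 CPM in WT (log2 fold change -0.16, SE 0.10, adjusted p = 0.38; -0.39 relative to the median of all genes). Kcna5, a pore of the ultrarapid current, was at 5, 6 and 10 CPM in TFEB-/- and 8 CPM in each WT library, and Kcna7 was at 8 to 11 CPM in TFEB-/- and 10 to 12 CPM in WT. Kcnc1 and Kcnq3, both known from neurons, stayed at 5 CPM or below. The cytoplasmic beta subunit Kcnab3 was at 2 CPM in each TFEB-/- library and listed at 0 in each WT library. Kcnip3 was at 0 or 1 CPM in every library.

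Of the 8 inward rectifier genes 0 were called by limma; 1 had an unadjusted p below 0.05, and with median-ratio scaling 1 was lower. That gene was Kcnj2, main pore of the current that holds the resting potential and the gene with the E-box window printed above. It was at 18, 15 and 20 CPM in TFEB-/- and at 29, 25 and 19 CPM in WT (log2 fold change -0.44, SE 0.20, adjusted p = 0.254; -0.67 with median-ratio scaling, adjusted p = 0.0322). Only WT replicate 3 fell within the TFEB-/- range. Kcnj12, a second pore of the same current, was at 30, 20 and 23 CPM in TFEB-/- and at 20, 16 and 13 CPM in WT (log2 fold change 0.56, adjusted p = 0.223), with overlapping groups. The pores of the muscarinic potassium channel, best known from atrium and nodes, gave no call. Kcnj5 was at 109, 67 and 69 CPM in TFEB-/-, against 60, 40 and 32 CPM in WT (log2 fold change 0.90, SE 0.32, adjusted p = 0.185), and Kcnj3 was at 43, 38 and 35 CPM in TFEB-/- and at 43, 47 and 36 CPM in WT (adjusted p = 0.613). The ATP-sensitive channel pores Kcnj11 (87, 59 and 78 CPM in TFEB-/- and 68, 76 and 39 CPM in WT) and Kcnj8 (8, 7 and 9 CPM in TFEB-/- and 11, 8 and 9 CPM in WT) had overlapping groups. Kcnj14 was at 1 CPM in every library but WT replicate 3, where it was at 26 CPM, and Kcnj4 was at 0 to 2 CPM throughout.

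Of the leak, calcium-activated and pacemaker channel genes 0 were called by limma, and 1, Kcnn2, had an unadjusted p below 0.05. Kcnk3, a background potassium channel, was at 456, 334 and 316 CPM in TFEB-/- and at 359, 337 and 235 CPM in WT (log2 fold change 0.25, SE 0.23, adjusted p = 0.516), and Kcnk6 was at 1 CPM in every library. The small-conductance calcium-activated channel Kcnn2 was at 11, 16 and 16 CPM in TFEB-/-, against 6, 5 and 10 CPM in WT (log2 fold change 1.02, SE 0.30, adjusted p = 0.14). The groups did not overlap for Kcnn2, while its relative Kcnn1 was at 13 to 17 CPM in TFEB-/- and 11 to 15 CPM in WT (adjusted p = 0.467). Hcn2 was at 46, 65 and 42 CPM in TFEB-/- and at 47, 42 and 29 CPM in WT (log2 fold change 0.37, SE 0.26, adjusted p = 0.414). Hcn4, the main pacemaker channel of the sinoatrial node, was at 11, 6 and 8 CPM in TFEB-/- and at 12, 7 and 5 CPM in WT (log2 fold change 0.10, SE 0.38, adjusted p = 0.912).

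The other 83 genes did not reach the filter. Of these, 72 were at 0 in every library and 11 were at 1 or 2 CPM in a few. Just inside the limit stood Kcnip3, at 0, 1 and 1 CPM in TFEB-/- and 0, 0 and 1 CPM in WT. Just outside stood Kcnn3, at 2, 0 and 1 CPM in TFEB-/- and 0 in WT, and Kcnmb1, at 0 in TFEB-/- and 1, 0 and 1 CPM in WT.

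Ratios of 2 channel genes within a library are free of library scaling and of the shift in the median of all genes. The pairs were chosen after the values were seen, and the size of a ratio depends on transcript length, so only the groups are compared and no test is given. Cacna1g over Cacna1c was 0.78, 0.558 and 0.699 in TFEB-/-, against 0.132, 0.122 and 0.0916 in WT. Cacnb1 over Cacnb2 was 0.435, 0.292 and 0.312 in TFEB-/-, against 0.17, 0.171 and 0.156 in WT. In both pairs the gene named second is the usual cardiac member, and every TFEB-/- library was above every WT library. Kcnj2 over Kcnj12 was 0.6, 0.75 and 0.87 in TFEB-/-, against 1.45, 1.56 and 1.46 in WT, so each TFEB-/- library was below each WT library. Kcnj5 over Kcnj3 averaged 2.09 ± 0.399 in TFEB-/- and 1.05 ± 0.304 in WT, and Kcnh2 over Kcnip2 averaged 1.01 ± 0.123 in TFEB-/- and 0.496 ± 0.0264 in WT, both without overlap. Cacna1s over Cacna1c averaged 0.0202 ± 0.00787 in TFEB-/- and 0.0578 ± 0.0184 in WT, again without overlap. Kcnip2 over Kcnd2 averaged 15.8 ± 4.32 in TFEB-/- and 16.9 ± 4.24 in WT, with overlapping groups, and Cacna2d1 over Cacna1c averaged 0.256 ± 0.12 in TFEB-/- and 0.359 ± 0.0701 in WT, also overlapping. The groups also overlapped for Kcnq1 over Kcnd2.

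**Figure D3:**
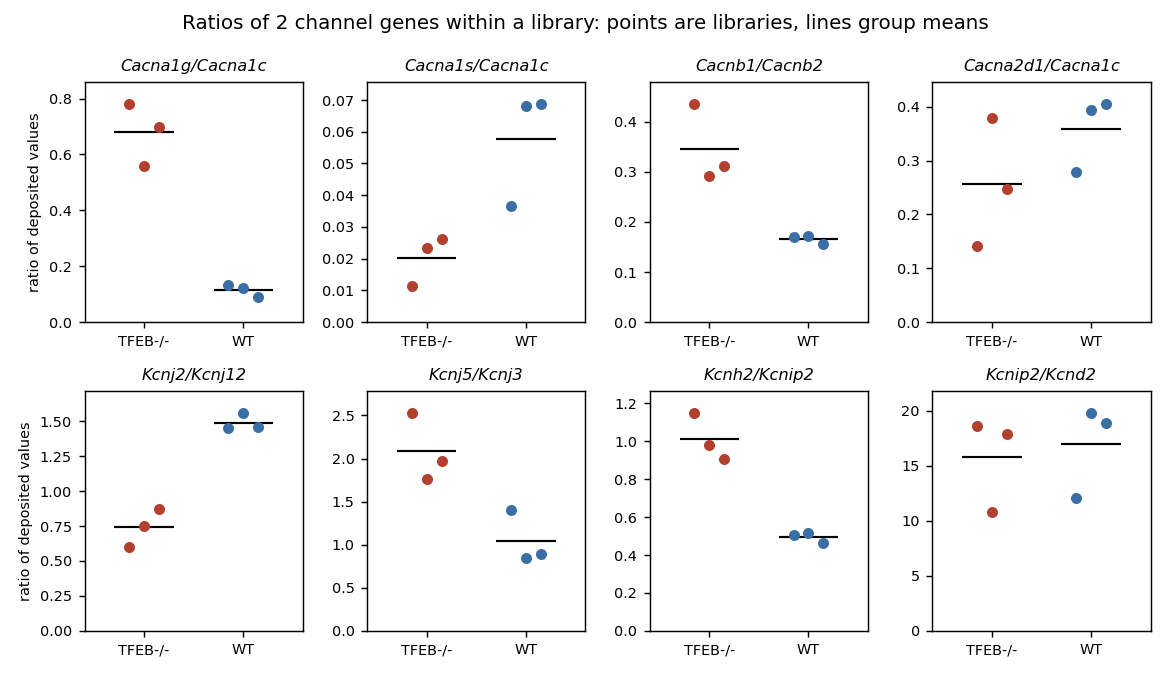
Ratio of the deposited values of 2 channel genes within each library (y axis, linear from 0, no unit) in 3 TFEB-/- (red, left) and 3 WT (blue, right) libraries, with lines at the group means. The groups do not overlap in 6 panels, among them Kcnj2 over Kcnj12 at 0.6 to 0.87 in TFEB-/- and 1.45 to 1.56 in WT; the groups overlap for Kcnip2 over Kcnd2 and for Cacna2d1 over Cacna1c.

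Of 12 marker lists of cell types and states, 6 had summed levels that did not overlap between the groups, all with TFEB-/- above WT. The sums are of the deposited CPM and were not rescaled by the median ratio. The factors of that scaling were 1.18, 1.02 and 1.06 in TFEB-/- and 1.02, 0.93 and 0.82 in WT. Dividing by them would narrow these differences. The groups would then overlap for the fibroblast, the smooth muscle and pericyte, and the leukocyte lists. Conduction system markers, 5 of 7 detected and Shox2 and Isl1 at 0 throughout, summed to 56 to 67 CPM in TFEB-/- and 34 to 46 CPM in WT. The higher sum came mostly from Cntn2, a Purkinje fibre marker, at 16, 30 and 25 CPM in TFEB-/-, against 7, 3 and 2 CPM in WT. The groups overlapped for the other detected genes of this list. Tbx3 was at 5 or 6 CPM in TFEB-/- and 4 to 7 CPM in WT, and Gja5 was at 19, 9 and 6 CPM in TFEB-/- and 7, 9 and 1 CPM in WT. Id2 was at 18, 22 and 17 CPM in TFEB-/- and 24, 18 and 26 CPM in WT. Schwann cell and neuron markers, 3 of 7 detected, summed to 20 to 42 CPM in TFEB-/- and 4 to 6 CPM in WT; the sum was nearly all Uchl1 (40, 18 and 28 CPM in TFEB-/-, against 3, 5 and 3 CPM in WT), and Tubb3 and Snap25 were among those at 0 throughout. Smooth muscle and pericyte markers, all 9 detected, summed to 318 to 404 CPM in TFEB-/- and 247 to 289 CPM in WT. Within it Acta2 was at 161, 233 and 185 CPM in TFEB-/-, against 66, 118 and 70 CPM in WT, and Cspg4 at 29, 21 and 21 CPM in TFEB-/-, against 10, 12 and 11 CPM in WT, while the groups overlapped for the other 7, among them the pericyte genes Rgs5 (67, 100 and 98 CPM in TFEB-/- and 123, 93 and 103 CPM in WT) and Pdgfrb (17, 14 and 15 CPM in TFEB-/- and 23, 14 and 19 CPM in WT). Fibroblast markers, all 8 detected, summed to 314 to 395 CPM in TFEB-/- and 234 to 259 CPM in WT, mostly through Gsn (202, 245 and 237 CPM in TFEB-/-, against 139, 136 and 129 CPM in WT), while Col1a1 was at 14 to 19 CPM in TFEB-/- and 14 to 18 CPM in WT. Leukocyte markers, 6 of 8 detected and Ptprc and Cd52 at 0 throughout, summed to 35 to 41 CPM in TFEB-/- and 16 to 25 CPM in WT, mostly through Lyz2 (14, 20 and 16 CPM in TFEB-/-, against 6, 7 and 9 CPM in WT). Markers of stressed or fetal-program cardiomyocytes, all 6 detected, summed to 8694 to 11554 CPM in TFEB-/- and 2618 to 3776 CPM in WT, mostly through Ankrd1 and Acta1. Myh7 was also above WT in every TFEB-/- library, while the groups overlapped for Nppa, Nppb and Xirp2. Xirp2 was at 189, 216 and 219 CPM in TFEB-/- and 241, 235 and 192 CPM in WT. Each of these 6 sums of deposited CPM, before any rescaling, gave the smallest possible exact two-sided permutation p, 0.1. Their part in the channel values was not tested.

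Genes that work with the channels were called in both directions. Of 84 listed genes of calcium cycling, channel partners, other conductances and cardiac transcription factors, 78 were tested, and 2 were higher (2.56%, against 3.92% of all genes) and 2 lower (2.56%, against 0.523%), with a median log2 fold change of 0.25, 0.01 above that of all genes. The syntrophin Sntb1, counted among the 2 higher, was at 2, 2 and 1 CPM in TFEB-/- and listed at 0 in WT. It passed the filter through TFEB-/- alone, so it had to differ. The chloride channel Clcn2 was at 8, 6 and 7 CPM in TFEB-/-, against 4 CPM in each WT library (log2 fold change 0.73, SE 0.11, adjusted p = 0.0385), which did not pass after median-ratio scaling (adjusted p = 0.0788). The ventricular repressor Hey2 was at 1 CPM in each TFEB-/- library and 2 CPM in each WT library, a single rounding step. Of 16 tested calcium cycling genes 0 were called by limma; 1 had an unadjusted p under 0.05, and 1 was lower with median-ratio scaling. The calcium pump Atp2a2 was at 8201 ± 438.7 CPM in TFEB-/- and 9425 ± 2225 CPM in WT (adjusted p = 0.589), and its inhibitor Pln was at 3045 ± 147.3 CPM in TFEB-/- and 3532 ± 457.6 CPM in WT (adjusted p = 0.332). Abcc9, the regulatory subunit of ATP-sensitive channels, was at 205.3 ± 38.2 CPM in TFEB-/- and 154.3 ± 42.4 CPM in WT (adjusted p = 0.327), and Rrad, an inhibitor of L-type channels, was at 755.7 ± 217.2 CPM in TFEB-/- and 622.0 ± 142.1 CPM in WT (adjusted p = 0.573). The homeodomain protein Hopx, known to act on cardiac conduction, was at 488, 287 and 411 CPM in TFEB-/-, against 220, 273 and 217 CPM in WT (log2 fold change 0.71, adjusted p = 0.163), and Mef2d had a log2 fold change of 0.34.

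Leaving out 1 library ended most calls. Without WT replicate 3 the calls of Cacna1a, Cacna1g, Cacna1s, Cacnb1 and Scn10a were lost (adjusted p = 0.0535 to 0.145, log2 fold changes of 2.13 for Cacna1g and -1.47 for Cacna1s). The calls of Kcnab3, Cacng7 and Kcnh7, which passed the filter through 1 group alone and had to differ, were kept. The calls of Cacna1g, Cacnb1 and Scn10a were lost when any 1 library was left out, and that of Cacna1s without any but TFEB-/- replicate 3. With the filter set at 1 CPM in any library, Cacna1g, Cacnb1 and Scn10a missed the threshold (adjusted p = 0.0517). Over 14 alternatives (13 for Cacna1a, which missed the filter of 5 CPM) the adjusted p ranged from 0.000586 to 0.165 for Cacna1g, 3.93e-05 to 0.0756 for Cacna1a, 0.0018 to 0.145 for Cacna1s, 0.00536 to 0.147 for Cacnb1 and 0.000974 to 0.138 for Scn10a. It ranged from 0.0124 to 0.165 for Kcnh2, 0.00425 to 0.21 for Kcnv2, 0.0307 to 0.495 for Kcnj2, 0.0169 to 0.128 for Clcn2 and 0.000586 to 0.112 for Tfeb, whose call was lost without any 1 library but WT replicate 1.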

How the data were processed

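Poly(A) RNA of isolated adult mouse cardiomyocytes was sequenced in 6 libraries, 3 TFEB-/- and 3 WT. Per the labels' protocols, TruSeq Stranded mRNA libraries were made from 400 ng of total RNA and read as pairs of 75 bases. The deposited table holds a score that its name calls kallisto CPM, rounded by the authors to whole numbers. Per the submitters' processing notes the build was GRCm38, and kallisto, Salmon, RSEM, STAR, HISAT2, StringTie, edgeR and DESeq2 are named without roles or versions. Scaling by transcript length is not stated, so levels are not compared between genes. Symbols turned into dates (26) were restored, missing names (303) replaced by IDs, and values sharing a symbol summed. The 12437 genes that reached 1 CPM in 3 or more libraries were fitted with limma 3.58.1 in R 4.3.3 on log2(CPM + 0.5), lmFit with genotype alone and eBayes with trend, two-sided, Benjamini-Hochberg adjusted over all tested genes, threshold 0.05. The fit was tested on simulated data. Full statistics were given to called members above 0 in both groups (the 3 others are given by their values), to members with a mean of at least 2 CPM, no overlap and a log2 fold change of at least 1 in size, and to the 2 highest members of each family; Cacna1h, Kcnj2 and the other members are given beside them. Of the partner lists, called genes and the 2 highest of each list are given. Single marker genes were chosen after their values were seen. Members and lists were chosen with earlier results of these data known. The alternatives were other pseudocounts, filters, scalings, rounding noise, robust hyperparameters, a replicate block and each library left out. Positions are from GENCODE M21. The depth of each library is unknown. Some genes counted among the members, lists and calls are not reported by name here.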

Additional observations from a re-analysis of the deposited data

How the results depend on the processing

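Higher and lower channel genes numbered 7 and 2. The higher count was 4 with a filter of 1 CPM in any library, 12 with rounding noise and 2 to 4 when each library was left out in turn; the lower count was 4 with median-ratio scaling and with CPM without mitochondrial transcripts, 1 to 2 with each library left out, and 1 without genes that had no spread within either group, an alternative chosen after seeing the data. Leaving a library out also leaves fewer samples. With each library left out, the higher count held Kcnab3 and Cacng7 and the lower count Kcnh7, which had to differ. Without WT replicate 1 the higher count also held Cacnb2, which was not called with all libraries. With the replicate number as a block, 3 channel genes were higher and 1 lower, and 0 partner genes were higher. Of these channel genes, only Scn10a had not passed the filter through 1 group alone. The correlations of same-numbered libraries' deviations from their group means were 0.144, -0.049 and 0.088, and not every library correlated best with its own number. Nothing in the labels pairs them, and these few values cannot show whether same-numbered libraries were handled together. Partner genes called higher, 2 in all, numbered 1 with a filter of 5 CPM, with median-ratio scaling and with CPM without mitochondrial transcripts, 0 to 2 with each library left out, and 3 with robust hyperparameters. Partner genes called lower, also 2, numbered 1 with the 5 CPM filter, rounding noise or robust hyperparameters, and 3 with median-ratio scaling, with CPM without mitochondrial transcripts and without TFEB-/- replicate 2. None of the called channel genes changed direction in any of the 14 alternatives in which it was tested. Of the genes not called, the log2 fold change of Cacna1c was -0.24 to 0.13 with each library left out, above 0 without TFEB-/- replicate 2 (0.03) and without WT replicate 1. That of Hcn4 was -0.12 with median-ratio scaling, -0.11 with CPM without mitochondrial transcripts, and -0.17 to 0.42 with each library left out, below 0 without TFEB-/- replicate 1 or WT replicate 3. That of Kcnn1 was -0.025 with median-ratio scaling and -0.011 with CPM without mitochondrial transcripts. The cause of these changes was not tested. Kcnh2 passed the threshold in 5 of 14 alternatives and Kcnv2 in 6.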
